A study of Mus musculus with 3 samples.

Results

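RAW 264.7 cells are a line of mouse macrophages. Their RNA after stimulation with LPS, the outer membrane component of Gram-negative bacteria that TLR4 recognises, was hybridised to a microarray. The LPS array was read on its own, as a list of transcripts in order of brightness. Gene probes were ranked by their processed signal, the background-subtracted brightness in arbitrary intensity units, among the probes that the scanner software marked as well above background and not as outliers. Of 56605 gene probes on the array, 29473 were ranked. They named 14837 of the 24842 genes with a symbol (59.7%), each gene being represented by its brightest ranked probe. Another 9871 genes (39.7%) had no probe well above background, and 134 had a bright spot only with an outlier flag. A percentile rank of 100 stands for the brightest ranked gene and 50 for the median.

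All 3 arrays carried RNA of RAW macrophages plated at 500000 cells per well and given LPS at 50 ng/mL. The cells of the LPS array received LPS alone. Those of the CRL1505 + LPS and CRL1506 + LPS arrays were first kept for 24 h with *L. rhamnosus* CRL1505 or *L. plantarum* CRL1506, each at 50000000 cells/mL, and were washed before LPS was added. The study's methods give 12 h of LPS, and the descriptions of the samples give 3 h. There was 1 array per condition, so no test could be made and no p-value is given, and since arrays without stimulation were not analysed here, an abundant transcript is not shown to be induced by LPS. The array of LPS alone shared its slide and scan run with that of CRL1506 + LPS, whereas the CRL1505 + LPS array came from another slide and run, and for it the slide and the strain cannot be told apart. Percentiles of single genes were taken on each array over the genes whose representative probe was ranked there. These were 14837 genes on the LPS array, 12763 on that of CRL1505 + LPS and 13848 on that of CRL1506 + LPS. The sets differ, so percentiles in the middle and lower part of the order are not directly comparable between arrays. Cultured as a single line, the cells stand for 1 clone of macrophages and not for a tissue population.

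Macrophages engulf and digest particles in lysosomes, carry Fc receptors, scavenger receptors and the receptor of the growth factor CSF1, and read bacterial products with Toll-like receptors. TLR4, together with CD14 and MD-2, signals through MyD88 to NF-kB, which drives chemokines and inflammatory cytokines, and through TRIF to IRF3, which drives interferon beta and, through it, the interferon-stimulated genes. The most abundant messenger RNAs of a growing cell line are generally those of ribosomes, the cytoskeleton, energy metabolism and, during DNA synthesis, histones.

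A number of the brightest probes carry a run of bases that recurs across the genome, and these sequences are shown because they bear on which gene names can be read from the top of the list. A probe was said to hold a repeated run if 20 consecutive bases of it also occurred in the promoter windows of genes on at least 3 chromosomes. In a first set, the 12 letters in capitals recurred in 17 of the 1000 brightest probes, and they were taken for letters of the B2 family of short interspersed elements. The family was named from the letters alone, since no repeat annotation was used here. Stretches of 30 bases are given for *Pbld1* (chr10:62540215-62540274, plus strand), *Furin* (chr7:87541196-87541223, minus strand), *Pirb* (chr7:3663046-3663105, minus strand) and *Sap18* (chr14:58422230-58422289, plus strand), with positions of the probes on mm9 as the files give them.
Pbld1: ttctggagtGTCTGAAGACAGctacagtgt
Furin: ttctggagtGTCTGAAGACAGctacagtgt
Pirb: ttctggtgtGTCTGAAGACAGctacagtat
Sap18: ttctggagtGTCTGAAGACAGctccagtgt
In a second set, another 12 letters recurred in 7 of the 1000 brightest probes, and they were taken, likewise from the letters alone, for the B1 family. Stretches are given for *Glrx2* (chr1:145596708-145596767, plus strand), *Elk1* (chrX:20510521-20510580, minus strand), *Med16* (chr10:79357669-79357728, minus strand) and *Cxcl11* (chr5:92788567-92788626, minus strand).
Glrx2: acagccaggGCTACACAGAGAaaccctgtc
Elk1: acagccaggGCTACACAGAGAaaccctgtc
Med16: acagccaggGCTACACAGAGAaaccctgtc
Cxcl11: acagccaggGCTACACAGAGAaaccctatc
*Pbld1* and *Furin*, which lie on different chromosomes and encode unrelated proteins, had the same 30 bases in these stretches, as did *Glrx2*, *Elk1* and *Med16*.

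The brightest probe of all matched the 18S ribosomal RNA and is shown with a probe of the 28S ribosomal RNA and one of *Gas5*, a host gene of small nucleolar RNAs, as examples of abundant RNAs that encode no protein. Their positions on mm9 are chr17:39984059-39984118 (plus strand), chr13:97960526-97960585 (minus strand) and, with the probe bridging a gap, chr1:162967641-162968147 (plus strand).
Rn18s: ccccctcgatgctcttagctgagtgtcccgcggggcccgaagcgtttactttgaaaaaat
Rn28s1: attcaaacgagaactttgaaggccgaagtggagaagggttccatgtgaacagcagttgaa
Gas5: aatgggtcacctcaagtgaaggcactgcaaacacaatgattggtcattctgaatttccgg
The signal of the *Rn18s* probe was 560443 with LPS alone, 461363 with CRL1505 + LPS and 534090 with CRL1506 + LPS. It was the brightest ranked probe on the LPS array, and its percentile rank among the probes of the other arrays was 99.9981 and 99.9983. The *Rn28s1* probe ranked 32 among probes at 291636, and the *Gas5* probe ranked 796 at 59824.

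Signals of the ranked probes spanned 16818-fold, from 33.3 to 560443, with a median of 418. The brightest 1% of probes held 31.2% of the summed signal, the brightest 5% held 68.8%, and the dimmer 50% held 1.02%. Brightness was thus concentrated in few probes. Of the 100 brightest probes, 33 named a ribosomal protein gene, 10 named a histone gene, 18 held an interspersed repeated run and 1 a simple run. A simple run is one built of few different pairs of neighbouring bases. A further 19 had no symbol in the reference table. The remaining probes were 10 of genes in other lists, 7 of named genes outside the lists and 2 of predicted genes.

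**Figure D1:**
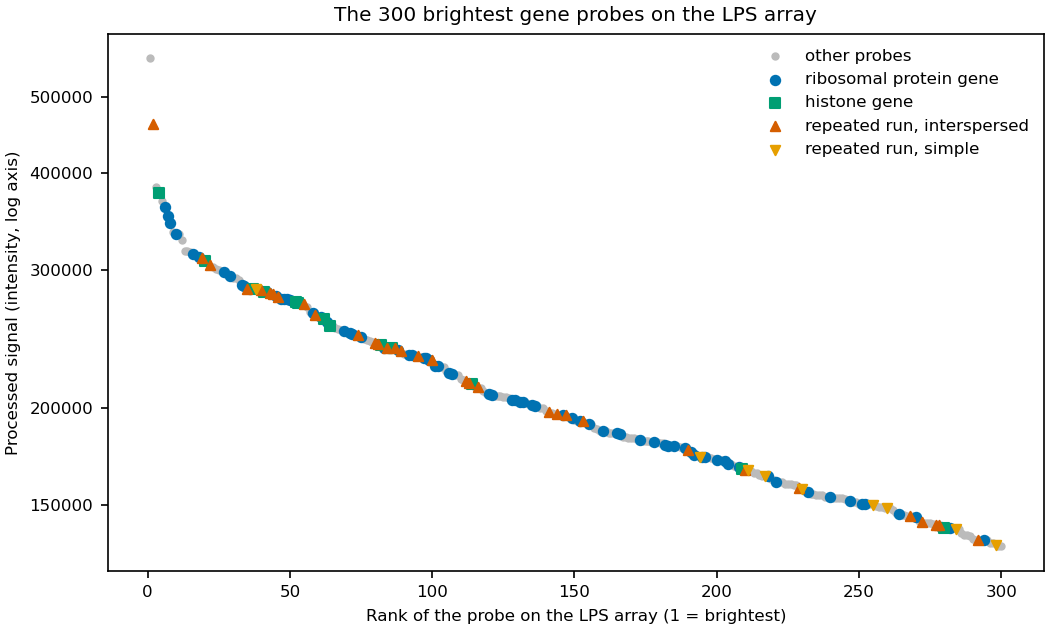
Processed signal (log axis) of the 300 brightest gene probes on the LPS array against their rank, with 1 point per probe and colours and shapes for ribosomal protein genes, histone genes and probes with a repeated run. Probes of ribosomal proteins and histones lie among those with a repeated run from the top of the order down to 132839.

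Among genes, the order was led by *Arhgef18* (461103, a probe with a repeated run), *Ppia* (383368, chr11:6319722-6319781), which encodes cyclophilin A, the histone gene *H2ac12* (376210, chr13:22127035-22127094) and *Actb* (367614, chr5:143665422-143665481), which encodes beta-actin. The genes at ranks 5 to 30 included the ribosomal protein genes *Rps18*, *Rps10*, *Rpl37a*, *Fau*, *Rplp2*, *Rps27a*, *Rps19*, *Rpl14*, *Rps16* and *Rps24*, and the tubulin gene *Tuba1b* (335393). They also included both ferritin chains, *Ftl1* (327499) and *Fth1* (317321), which store iron, and the glycolytic genes *Pgk1* (307309) and *Aldoa* (299201). A single immune gene lay in this range, the chemokine *Ccl2* at rank 14 (312528, chr11:81850650-81850709), which attracts monocytes. Others were *H2ac11*, *H2ac20*, *Rn28s1*, *Rpl37rt*, *Gm5523* and *Cnbd2*, with *Psg23*, *Wdr31* and *Exosc2*, whose probes held a repeated run. The *Cnbd2* probe shared a run of 56 bases with that of *Rpl37a*, which ranked 7 against 10 for *Cnbd2*, and the 2 names cannot be told apart on those bases. Of the 4 other probes of *Cnbd2*, 1 was ranked, at 95.7, and 3 were not well above background. Outside the lists, the brightest names were *Arhgef18*, *Ppia*, *Cnbd2*, *Psg23* and *Wdr31*.

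Ribosomal protein genes were the most abundant class. Of the 88 on the array, 87 were ranked, 82 lay among the brightest 5% of ranked genes, a band that holds 5% of all ranked genes by definition, and 35 were among the 100 brightest, where 0.674% of all ranked genes lie. They held 12.5% of the summed signal of ranked genes, and their median percentile was 99.2. The exceptions were paralogs and dim probes. *Rpl39l*, a testis-enriched paralog, was not well above background on any of the 3 arrays, and *Rpl37* had its single probe at percentile 7.202 with LPS, 0.34 with CRL1505 + LPS and 4.90 with CRL1506 + LPS, although it encodes a protein of every ribosome. All 9 elongation factors and associated genes were in the brightest 5%, led by *Eif5a* (217104), *Tpt1* (206662) and *Eef1b2* (180441). Of the initiation factors, which start translation, 29 of 29 were ranked and 11 were in that band, led by *Eif4a1* (104873), *Eif3h* (99632) and *Eif3l* (64514).

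Genes of the cytoskeleton and of energy metabolism were frequent in the band too. Of 38 actin cytoskeleton genes all were ranked and 24 were in the brightest 5% (median percentile 96.5), led by *Actb*, *Tmsb4x* (225739), which sequesters actin monomers, and *Arpc2* (191406), a subunit of the branching complex Arp2/3. The spread between probes was wide even here, since a second probe of *Tmsb4x* read 154. Of the tubulins 4 of 12 lay in the band, with *Tuba1c* (181484) and *Tubb5* (92280) next to *Tuba1b*. Glycolysis had 10 of 23 genes there, *Gapdh* (233641) and *Ldha* (202712) coming after *Pgk1* and *Aldoa*. Of the nuclear genes of oxidative phosphorylation 83 of 86 were ranked and 45 were in the brightest 5% (median percentile 95.2), although only 1.20% of them were in the brightest 1%. The genes of this class that were not well above background on any of the 3 arrays were *Cox7b2*, *Cox8b* and *Cox8c*, paralogs known from testis or muscle. The mitochondrially encoded *mt-Co2* (195841), *mt-Cytb* (55577) and *mt-Co1* (44819) were in the same band, and mitochondrial ribosomal proteins had a median percentile of 84.3 with 5 of 78 in it.

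Genes of protein turnover and folding were abundant as constitutive forms, and some inducible forms were not well above background. All 31 proteasome genes were ranked with a median percentile of 94.1, led by *Psmb6* (148913), *Psmb4* (65149) and *Psmd3* (57727). Of the heat shock proteins and chaperonins 18 of 21 were ranked (median percentile 96.6), led by *Hsp90ab1* (171192), *Hspa8* (88028) and *Cct5* (76031). *Hspa1a*, *Hspa1b* and *Hspb1*, which heat and proteotoxic stress are known to induce, were not well above background on any of the 3 arrays. The endoplasmic reticulum chaperones were led by *Hspa5* (103373), *Pdia6* (101608) and *Hsp90b1* (88835), and all 18 were ranked. Iron and redox genes had 10 of 29 in the brightest 5%, with *Prdx1* (160591), a peroxidase, behind the ferritins. *Sod3* and *Nqo1* were not well above background on any of the 3 arrays. Splicing factors had a median percentile of 88.7, and of 72 only *Srsf12* was not well above background.

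The transcripts of dividing cells were abundant too. Core histones and histone variants had 63 of 72 genes ranked and 21 in the brightest 5%, and they held 3.51% of the summed signal. Several of their probes shared 30 bases or more with probes of other histone names, *H2ac12* with 6 and *H2ac20* with 4, so the H2A genes of the top 100 are not separate measurements. Replication genes had 36 of 36 ranked with a median percentile of 84.3, led by the helicase subunits *Mcm6* (69256) and *Mcm3* (49842) and by the sliding clamp *Pcna* (44258). Mitotic genes had 30 of 30 ranked with a median percentile of 85.1, led by *Incenp* (35938), *Pttg1* (35412) and *Birc5* (34653). No gene of these last 2 classes was missing from the ranked set.

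**Figure D2:**
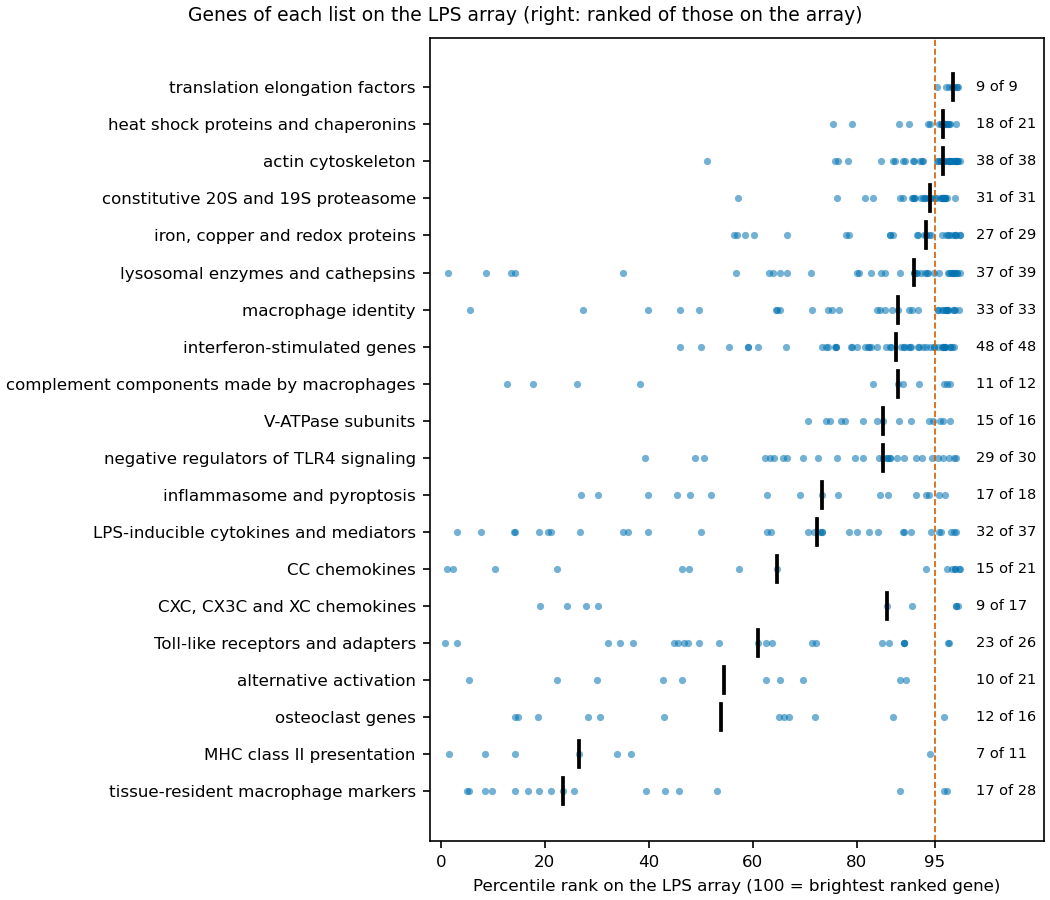
Percentile rank on the LPS array (100 for the brightest ranked gene) of the ranked genes of the lists, with 1 point per gene, a bar at the median of the list, a dashed line at percentile 95 and, at the right, the number ranked of those on the array. Elongation factors and actin genes sit mostly beyond the dashed line, while the medians of the MHC class II and tissue-resident lists are 26.5 and 23.5.

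Names with a repeated run were more frequent at the very top, and other probes of the same genes without a run were mostly much dimmer. Of all ranked probes 1.34% held a repeated run, against 19% of the 100 brightest, 11.5% of those at ranks 101 to 300 and 7.57% of those at ranks 301 to 1000. In the brightest 5% of genes, the brightest probe was compared with the next probe, its gene's brightest other ranked probe without a run. The median ratio was 189-fold where the brightest probe held an interspersed run (27 genes) and 169-fold where it held a simple run (29 genes). It was 4.39-fold where the brightest probe held none (362 genes). Other probes with a run were left out of the comparison, so a bright one among them does not narrow these ratios. The next probe lay at a median percentile among probes of 57.5, 54.7 and 91.9, respectively. For *Furin*, a protease of the secretory pathway, the probe with the run read 262911 and the other probe 4694. For *Pirb*, an inhibitory receptor of myeloid cells, the values were 241339 and 3085, and for the transcription factor gene *Elk1* they were 271386 on the probe with the run against 2568, on a spot with an outlier flag, and 7.62, not well above background, on the others. Whether the repeated runs account for these differences was not tested.

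**Figure D3:**
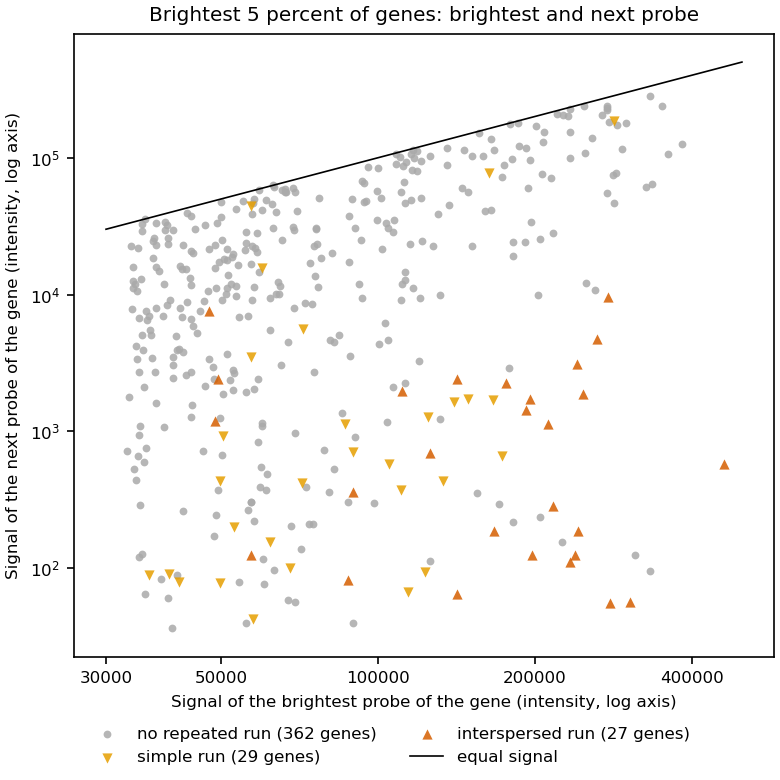
Signal of the next probe of a gene, its brightest other ranked probe without a run, against that of its brightest probe on the LPS array (both log axes, intensity). There is 1 point per gene among the brightest 5% of genes that have such a probe, and the line marks equal signal. Genes without a repeated run in the brightest probe (362) lie near the line more often than those with a simple run (29) or an interspersed run (27), whose median ratios were 169 and 189.

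Some immune names were among them, and their probes with and without a run are given side by side. *Cxcl11*, an interferon-induced chemokine gene listed as a transcribed pseudogene in the reference table, read 176284 on the probe with the run and 2250, percentile 73.6 among probes, on the other. *Naip5*, a sensor of flagellin, read 27056 and 99.8, *Nlrp1a*, another inflammasome sensor, read 9143 and 111, and *Ptges*, the inducible synthase of prostaglandin E2, read 16460 and 309. *Mgl2*, a lectin of alternatively activated macrophages, read 14960 and 916. The bright probe of *Siglech*, a marker of plasmacytoid dendritic cells and microglia, held a simple run and read 54126, while its other probes read 15.1 and 7.19 and were not well above background. *Itgam*, which encodes CD11b, read 9145 with a simple run and 399.7 without. By contrast, *Grn*, which encodes progranulin, read 283493 on a probe with a simple run and 185706 and 15406 on probes without.

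Genes that define macrophages passed the detection flag, some of them only just. All 33 genes of the macrophage identity list were ranked on the LPS array, against 59.7% of all genes, 13 of them were in the brightest 5%, and the median percentile was 87.9. *Lyz2*, which encodes lysozyme, led the list with percentiles of 99.6, 99.4 and 99.4 on the LPS, CRL1505 + LPS and CRL1506 + LPS arrays, an order of arrays kept below. The Fc receptor chain gene *Fcer1g* was at 98.8, 98.99 and 98.8, and *Lgals3*, which encodes galectin-3, at 98.7, 98.6 and 98.7. These places near the top were much the same on each array. *Csf1r*, the receptor on which macrophages depend for survival, was at 98.6, 94.6 and 97.4, with signals of 120050, 30196 and 61675, and was highest on the LPS array. *Cd68* (97.1, 96.7 and 97.1), *Tyrobp* (96.6, 94.1 and 95.3), *Aif1* (97.5, 95.9 and 96.9) and *Cebpb* (96.4, 96.6 and 95.4) were all bright.

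Other identity genes lay lower. *Adgre1*, which encodes F4/80, was at 74.5, 90.4 and 84.1 and the high-affinity IgG receptor gene *Fcgr1* at 75.2, 91.3 and 84.1, both lowest on the LPS array. *Spi1*, the gene of the lineage factor PU.1, was at 65.2, 53.5 and 54.2 and *Mertk*, a receptor for apoptotic cells, at 49.6, 41.03 and 50.2, the latter near the median gene. *Cd36*, a scavenger receptor for oxidised lipids, was among the dimmest ranked genes at 47.2 (percentile 5.56), was not ranked on the CRL1505 + LPS array and was at 6.29 on the CRL1506 + LPS array. *Cx3cr1*, the fractalkine receptor, was at 64.8 and 37.8 on the LPS and CRL1506 + LPS arrays and was not ranked on the CRL1505 + LPS array.

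Lysosomal genes were bright as a class, with 37 of 39 ranked, 11 in the brightest 5% and a median percentile of 91.1. Behind *Grn* came the proteases *Ctsb* (99.3, 99.4 and 99.4) and *Ctsa* (99.2, 99.5 and 99.3), and then *Gla*, whose only probe held a repeated run. *Ctsd* (98.5, 97.6 and 98.7), *Ctss* (98.3, 98.3 and 98.5) and *Lamp1* (98.2, 97.8 and 98.3) lay close behind and kept their places. The single probes of *Cd63*, a lysosomal tetraspanin, and of *Acp5*, tartrate-resistant acid phosphatase, were not well above the background of the LPS array, nor on 1 of the other arrays. Of the subunits of the V-ATPase, which acidifies lysosomes, 15 of 16 were ranked, led by *Atp6v1f* (88832), *Atp6v0c* (52487) and *Atp6v0e* (42160), and the osteoclast subunit *Atp6v0d2* was not well above background on any of the 3 arrays. Of the complement genes 11 of 12 were ranked, led by properdin, *Cfp* (97.9, 97.2 and 97.3), *C1qc* (97.3, 96.1 and 96.02) and *C3* (96.9, 98.3 and 97.6), and *C2* was not well above the background of the LPS array.

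Chemokines held some of the brightest genes of the array and others that were not well above background. Of 21 CC chemokines 15 were ranked (71.4%, against 59.7% of all genes) and 6 were in the brightest 5%. *Ccl2* was at percentiles 99.9, 99.96 and 99.8, *Ccl4* at 99.7, 99.9 and 99.8, *Ccl3* at 99.00, 99.04 and 99.03 and *Ccl5* at 98.9, 99.8 and 99.1, and these ligands of monocytes and T cells were among the brightest genes on every array. *Ccl9* was at 98.3, 98.8 and 98.5 and *Ccl7* at 97.3, 99.4 and 98.4, the latter lowest on the LPS array, with signals of 62140, 172588 and 104159. *Ccl12* (93.3, 93.9 and 93.2) followed, and *Ccl6* (64.7, 54.7 and 68.7) and *Ccl20* (57.3, 50.6 and 38.96) lay in the middle of the order. *Ccl11*, *Ccl19*, *Ccl22*, *Ccl26* and *Ccl27a* were not well above background on any of the 3 arrays, and *Ccl8* not on the LPS array and 1 other.

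Of the CXC, CX3C and XC chemokines 9 of 17 were ranked (52.9%), against 59.7% of all genes, so the share was near that of all genes. The ranked ones include *Cxcl11*, which read 176284 on a probe with a repeated run and 2250 on its other probe. *Pf4*, platelet factor 4, which macrophages also make, was brightest at 99.5, 98.3 and 98.8, with signals of 220346, 92984 and 128964, and *Cxcl10*, a chemokine of the interferon response, was at 99.2, 99.4 and 99.2. *Cxcl2*, which attracts neutrophils, was at 90.6, 92.6 and 87.99, while the related *Cxcl1* had a signal of 148 on the LPS array (percentile 24.3), was at 0.82 on the CRL1506 + LPS array and was not ranked on the CRL1505 + LPS array. *Cxcl16* was at 85.8, 75.1 and 75.4. *Cxcl3*, *Cxcl5*, *Cxcl13*, *Cxcl15*, *Cxcl17* and *Xcl1* were not well above background on any of the 3 arrays, and *Cxcl12* and *Cxcl14* not on the LPS array.

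Inflammatory cytokines and mediators were spread over the whole order. Of 37 listed, 32 were ranked and 5 were in the brightest 5%. *Acod1*, which makes itaconate, was at 99.2, 99.4 and 99.4, the acute phase gene *Saa3* at 98.8, 99.6 and 97.6 and *Tnf* at 98.2, 97.8 and 97.8, and all of them were near the top on each array. *Il1b* was at 95.9, 97.2 and 91.8, although its other probes on the LPS array read 8010 and 1167 against 41570. *Il6* was at 78.6, 97.8 and 94.2, with signals of 5849, 77384 and 27994, and so was well below *Tnf* on the LPS array and close to it on the CRL1505 + LPS array. *Nos2*, the inducible nitric oxide synthase, was at 70.6, 93.9 and 60.9, *Ptgs2*, cyclooxygenase-2, at 82.4, 91.00 and 78.04 and *Ifnb1* at 63.5, 91.4 and 86.4.

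At the lower end were *Il1a* (39.8, 71.5 and 33.9), the regulatory cytokine *Il10* (26.7, 47.8 and 21.2), the interleukin-12 subunit *Il12b* (36.01, 19.7 and 24.1) and *Csf3* (20.6, 46.4 and 38.00). *Il19* (14.2, 77.2 and 21.7) and *Inhba*, a subunit of activin A (3.06, 46.7 and 44.02), were dim on the LPS array and in the middle of the order or above it on at least 1 other. *Il12a*, *Ifng* and *Il9* were not well above background on any of the 3 arrays, *Il33* not on 2 arrays, and the only probe of *Csf2* had an outlier flag on the LPS array, so no rank is given. Over the 30 genes of the list ranked on all 3 arrays, 19 lay more than 5 points higher on the CRL1505 + LPS array, 9 within 5 points and 2 lower. On the CRL1506 + LPS array the numbers were 9, 18 and 3. Of the 12649 genes ranked on all 3 arrays, 16.2% lay more than 5 points higher on the CRL1505 + LPS array and 7.82% on that of CRL1506 + LPS, while 19.5% and 14.9% lay lower.

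Interferon-stimulated genes were ranked without exception (48 of 48), 11 were in the brightest 5%, and the median percentile was 87.6. *Ifitm3*, which restricts virus entry, was at 98.7, 98.6 and 98.6, and the MHC class I genes *B2m* and *H2-K1* at 98.3, 98.9 and 98.4 and at 98.05, 98.3 and 98.1. *Isg15*, a ubiquitin-like protein, was at 97.9, 99.6 and 98.7, *Irf7* at 96.7, 98.96 and 98.1, *Rsad2* at 96.4, 99.5 and 98.3 and *Ifit1* at 89.2, 96.01 and 92.6, each lowest on the LPS array. Of the 48 genes, 26 lay more than 5 points higher on the CRL1505 + LPS array and 12 on that of CRL1506 + LPS, and 0 and 0 lay lower, against the 16.2% and 7.82% of all genes that lay higher. On the scale of signal, with the median log2 difference between the arrays taken off, 39 and 11 of them were more than 2-fold higher, against 6.78% and 3.58% of all genes. *Gbp5* (66.5, 91.8 and 66.9) was among those that ranked higher on the CRL1505 + LPS array and stayed in place on the CRL1506 + LPS array. For the CRL1505 + LPS array the slide differed as well, and its part in these shifts was not tested.

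The receptors that read LPS were of unequal brightness. *Cd14* was at 97.5, 96.7 and 96.8 and *Tlr2*, the receptor of bacterial lipopeptides, at 97.8, 93.6 and 96.1, whereas *Tlr4* itself, with a signal of 3712, was at 71.4, 65.2 and 60.2. *Ly96*, which encodes MD-2, was at 63.7, 61.4 and 74.6 on a probe with a simple run, and the adapter *Myd88* at 89.1, 91.5 and 86.3. Of the receptors of nucleic acids in endosomes, *Tlr7* (72.1, 75.9 and 66.2) was close to *Tlr4* on the LPS array. *Tlr9* (47.6, 41.3 and 45.4) and *Tlr3* (34.6, 40.8 and 42.4) were lower. *Tlr12* and *Lbp*, a plasma protein of the liver, were not well above background on any of the 3 arrays, and *Ticam2* not on the LPS array. In all, 23 of 26 of this list were ranked, with a median percentile of 61.1.

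Genes that restrain TLR4 signaling were mostly abundant, with 29 of 30 ranked and a median percentile of 85.1. After *Acod1*, *Nfkbia*, which encodes the inhibitor of NF-kB, was at 98.7, 98.6 and 98.5, *Tnip1* at 97.8, 96.4 and 97.3 and *Trib3* at 96.6, 96.9 and 96.8. *Socs3* was at 94.5, 97.1 and 92.2 and *Tnfaip3*, which encodes A20, at 85.1, 90.05 and 82.3, and *Socs2* was not well above the background of the LPS array. Of the inflammasome and pyroptosis genes 17 of 18 were ranked, led by *Ninj1* (97.1, 95.4 and 96.1), whose protein ruptures the plasma membrane. *Casp4* was at 93.4, 95.2 and 94.2, *Casp1* at 91.4, 94.5 and 92.3 and *Gsdmd*, which forms the pores, at 76.4, 77.1 and 76.6, so the effectors were bright, while the sensor *Nlrp3* was at 48.03, 36.2 and 44.5, close to the median gene. *Pycard*, the adapter ASC that RAW cells are known to lack as a protein, was at 85.98, 76.5 and 83.8 on 1 probe, and a second probe, placed on the other strand, read 24.9 and was not well above background. *Naip1* was not well above the background of the LPS array.

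Of the genes the study's own microarray results name, others were spread over the order. *Rela*, a subunit of NF-kB, was at 96.5, 96.4 and 95.7, *Jun* at 88.3, 80.3 and 87.1 and *Tgfbr2* at 78.7, 62.4 and 65.5, and *Il17ra* was not well above the background of the LPS array. Among adhesion molecules *Icam1* was at 96.3, 94.7 and 92.8, *Cadm1* at 84.7, 78.04 and 79.3, *Alcam* at 81.1, 79.2 and 82.1 and *Icam2* at 75.5, 60.02 and 74.9. *Vcam1* and *Selp*, known from activated endothelium, were not well above background on any of the 3 arrays. *Epcam* (25.5) and *Amigo1* (18.6) were dim on the LPS array and not well above background on the CRL1505 + LPS array.

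Antigen presentation through MHC class II was represented by dim genes except for its invariant chain. The invariant chain gene *Cd74* was bright at 94.1, 93.8 and 91.3, with signals of 27865, 25149 and 17807. *H2-Aa*, *H2-Eb1* and *H2-Eb2*, which encode chains of the antigen-presenting molecules themselves, were not well above background on any of the 3 arrays, and *H2-DMb2* not on the LPS array. These were 4 of the 11 genes of the list, against 39.7% of all genes on the LPS array, so the share was near that of all genes. The transactivator *Ciita*, on which their transcription depends, had a signal of 39.1 on the LPS array (percentile 1.53) and was not ranked on the others. The remaining ranked genes, *H2-Oa* (36.7), *H2-DMa* (33.97) and *H2-DMb1* (26.5) among them, lay below the median gene, and none of the 7 ranked genes was in the brightest 5%.

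Many genes of resident tissue macrophages and of alternative activation were dim or not well above background. Of 28 tissue-resident markers 11 were not well above the background of the LPS array and 9 on all 3 arrays, against 39.7% of all genes on the LPS array, so the share was near that of all genes. They included *Lyve1*, *Cd163*, *Vsig4*, *Cd5l*, *Gata6*, the factor of peritoneal macrophages, *Sall1*, the factor of microglia, *Adgre4* and *Cd209b*. The ranked ones had a median percentile of 23.5. *Marco*, a scavenger receptor of alveolar macrophages, was an exception at 97.3, 99.7 and 98.7, with signals of 61708, 212642 and 116508, lowest on the LPS array. *Mrc1*, which encodes the mannose receptor, read 46.8 (percentile 5.40) and was not ranked on the other arrays. Of 21 alternative activation genes 10 were ranked on the LPS array (47.6%), against 59.7% of all genes, and their median percentile was 54.4. *Clec10a* (88.3, 84.2 and 82.3), *Fn1* (69.7, 78.2 and 84.3) and *Chil3* (65.3, 73.7 and 54.7) were among the ranked. The other 11 were not well above background, among them *Arg1*, *Chil4*, *Ccl22*, *Pdcd1lg2*, *Alox15*, *Tgm2* and *Irf4* on all 3 arrays and *Retnla* on 2.

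RAW cells are known to form osteoclasts when given RANKL. Of 16 osteoclast genes 12 were ranked, and the brightest were *Tcirg1* (96.8, 97.03 and 97.5) and *Clcn7* (86.98, 86.1 and 89.4), which macrophages also use in lysosomes, and the RANK gene *Tnfrsf11a* (71.9, 81.4 and 66.2). *Calcr*, *Itgb3* and *Atp6v0d2*, which mark mature osteoclasts, were not well above background on any of the 3 arrays.

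Genes of most other cell types were ranked less frequently than the 59.7% of all genes. On the LPS array 5 of 12 B cell genes, 3 of 10 NK cell genes, 2 of 10 mast cell genes, 2 of 13 epithelial genes, 4 of 12 fibroblast genes and 2 of 10 hepatocyte genes were ranked. The lists of neurons and glia (6 of 12) and endothelial cells (5 of 11) were nearer to that share, and those of dendritic cells and neutrophils, with 7 of 12 each, were close to it. Among the members of the lists that were not well above background on any of the 3 arrays were *Cd79a*, *Cd3g*, *Cd8a*, *Gzma*, *Gzmb*, *Cpa3*, *Cdh1*, *Krt8*, *Krt18*, *Alb*, *Apoa1*, *Alas2*, *Pdgfra* and *Thy1*. Other members of the same lists were ranked, such as *Epcam* at percentile 25.5 on the LPS array in the epithelial list. Of the T cell genes 10 of 15 were ranked, with *Cd5* (72.9, 53.9 and 65.9), *Cd247* (72.4, 68.4 and 70.95) and *Lck* (63.7, 75.03 and 68.4) highest. Bright members of these lists were few, namely *Pf4* in the platelet list, *Siglech* and *Bst2* (91.8) in the dendritic cell list, *Acta2* (32264, 94.9), which encodes smooth muscle actin, and *Trf* (24875, 93.5), which encodes transferrin. Among neutrophil genes *S100a8* (54.5), *Elane* (43.5) and *Camp* (33.00) were the brightest.

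Receptor families of sensory neurons gave the share of genes that pass the detection flag where no transcript is likely. Of 1080 olfactory receptor genes 158 were ranked on the LPS array (14.6%), with a median percentile of 12.2, and 833 were not well above background on any of the 3 arrays. Vomeronasal receptors had 28 of 262 ranked (10.7%), beta-defensins 6 of 42 and keratins with keratin-associated proteins 39 of 100. *Cd36*, *Mrc1*, *Inhba* and *Ciita* lay below the median percentile of the ranked olfactory receptors on the LPS array, where the flag alone does not separate a transcript from background. Single members of these families were bright nonetheless, such as *Krtap4-6* (44858, 96.2) and *Olfr1152* (13240, 88.3).

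**Figure D4:**
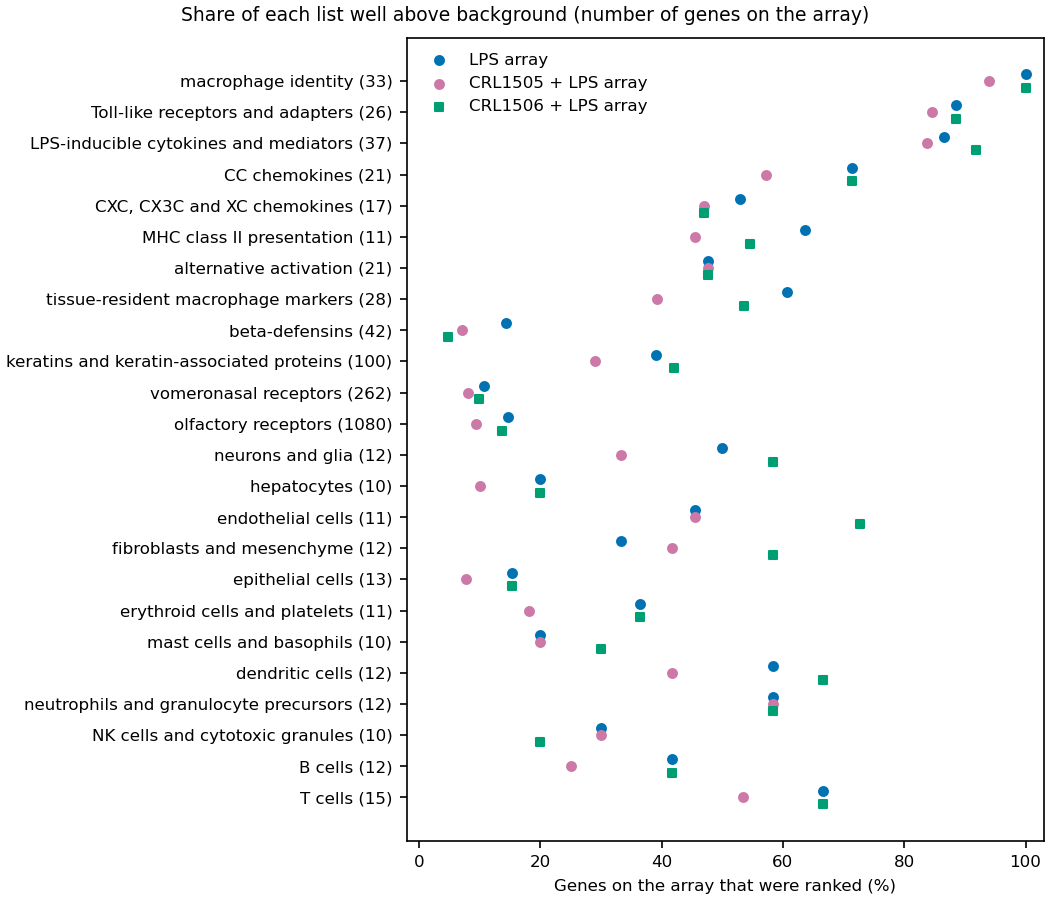
Share of the genes on the array (%) that were ranked in each list on the LPS, CRL1505 + LPS and CRL1506 + LPS arrays, with 1 point per list and array and the number of genes on the array in brackets. The macrophage identity list is complete on the LPS array (33 of 33), and the olfactory receptors lie near the lower end (158 of 1080).

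The top of the order was largely kept on the other arrays. Of the 100 brightest genes of the LPS array 80 were among the 100 brightest on the CRL1505 + LPS array, 87 on the CRL1506 + LPS array and 75 on both. Of the 742 genes of the brightest 5%, 552 were in that band on both. The band is smaller on the CRL1505 + LPS and CRL1506 + LPS arrays, being 5% of 12763 and 13848 genes, so not all 742 could be kept. Over the 24364 probes ranked on all 3 arrays, the share that stayed within 5 percentile points was 61.6% on the CRL1505 + LPS array and 71.1% on that of CRL1506 + LPS, and 49.1% stayed within 5 points on both. By brightness, it was 99.5% and 99.9% for the probes above percentile 95, 68.8% and 85.8% between percentiles 70 and 80, and 45.9% and 48.0% between percentiles 20 and 30. A window of 5 points is wide at the top of the order, where signals lie far apart, so these shares are in part set by the scale, and *Csf1r*, with signals of 120050 and 30196 on the LPS and CRL1505 + LPS arrays, counted as kept. On the scale of signal, with the median log2 difference between the arrays (-0.48 and -0.17) taken off, 10869 and 12014 of the 12649 genes ranked on all 3 arrays lay within 2-fold of the LPS array. That share was 91.1% and 98.8% for genes above percentile 95 and 82.6% and 91.9% for those between percentiles 20 and 40. Spots with uneven pixels, which the dimmest probes held most often, kept their place in 25.4% and 25.5% of cases.

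**Figure D5:**
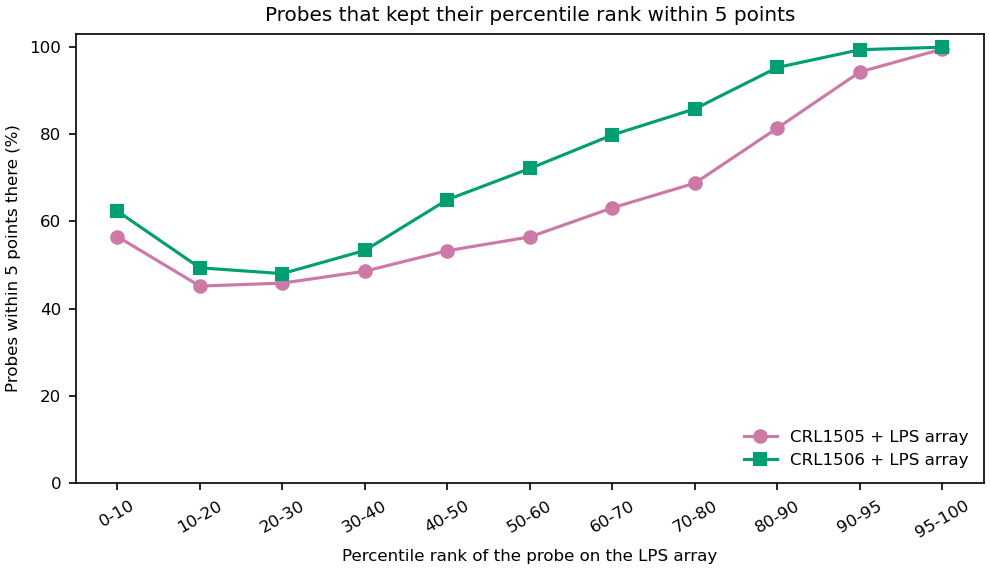
Percentage of probes whose percentile rank on the CRL1505 + LPS (circles) and CRL1506 + LPS (squares) arrays stayed within 5 points of that with LPS alone, against the percentile band of the probe on the LPS array, over the 24364 probes ranked on all 3 arrays. Both lines are lowest between percentiles 10 and 30 and reach 99.5% and 99.9% above percentile 95.

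The classes are given on both scales. All 85 ribosomal protein genes ranked on the 3 arrays stayed within 5 points on the CRL1505 + LPS array and 84 on that of CRL1506 + LPS. So did all 31 proteasome genes on both, against 64.3% and 77.3% of all genes, and all genes of these 2 classes lay within 2-fold on both arrays. Above percentile 95, where most ribosomal protein genes lay, 99.2% and 100% of genes stayed within 5 points and 91.1% and 98.8% within 2-fold. Between percentiles 80 and 95, 84.9% and 96.7% of genes stayed within 5 points. The 5-point counts of ribosomal protein genes were thus near those of genes as bright. Of 59 histone genes 31 lay more than 5 points lower on the CRL1505 + LPS array and 21 on that of CRL1506 + LPS, and 6 and 1 lay higher, against the 19.5% and 14.9% of all genes that lay lower. On the scale of signal 37 and 3 of them were more than 2-fold lower, against 7.29% and 1.44% of all genes. The largest drops among the 100 brightest genes were those of *H4c4*, from rank 84 to 442 and to 174, and of *H2ac23*, *H2ac22*, *H2ac11* and *H2ac19* on the CRL1505 + LPS array, *H2ac11* moving from rank 17 to 304. On the CRL1506 + LPS array *Pf4*, from rank 80 to 165, *H2ac19*, *H2ac23* and *H2ac20* followed *H4c4*.

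Other genes of dividing cells ranked lower on the CRL1505 + LPS array. Of 36 replication genes 27 lay more than 5 points lower on the CRL1505 + LPS array and 2 on that of CRL1506 + LPS, and of 30 mitotic genes 25 and 7, against 19.5% and 14.9% of all genes. No gene of either class lay more than 5 points higher. Dim genes moved down more often than bright ones, so these shares of all genes are not those of genes of like brightness. Between percentiles 80 and 95, where the medians of both classes lay, 11.3% and 2.39% of genes lay lower. The 2 of 36 replication genes on the CRL1506 + LPS array (5.56%) were fewer than the share of all genes and more than that of this band. More than 2-fold lower were 22 replication genes and 16 mitotic genes on the CRL1505 + LPS array, and 0 of either class on that of CRL1506 + LPS, against 7.29% and 1.44% of all genes. *Tk1*, thymidine kinase of S phase, was at 85.9, 45.99 and 80.4, *Rrm2*, a subunit of ribonucleotide reductase, at 93.6, 66.7 and 91.7 and *Mcm6* at 97.6, 92.4 and 96.9. Each was highest on the LPS array and lowest on the CRL1505 + LPS array. With 1 array each, and with the CRL1505 + LPS array on another slide, the difference from the LPS array is a difference between arrays, and its cause was not tested.

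Most genes that were not well above background stayed so. Of the 9871 genes not well above the background of the LPS array, 9215 were so on the CRL1505 + LPS array and 9038 on that of CRL1506 + LPS, and 8542 on both. In the other direction 1954 of the 14837 ranked genes were not well above background on the CRL1505 + LPS array and 882 on that of CRL1506 + LPS. Fewer genes were ranked in all on the CRL1505 + LPS array, 13534 against 14772, and the 75th percentile of its signals was 517, against 743 with LPS alone and 698 with CRL1506 + LPS. The part of this lower signal in the loss of dim genes there, *Cd36* and *Mrc1* among them, was not tested.

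Of the sources of error of a rank, the spots and the probes could be measured, and the spread between cultures, hybridisations and slides could not. Repeated spots of a probe on the LPS array had a median SD of 0.0446 on the log2 scale. The ranked probes of a gene, in contrast, had a median SD of 1.78 on that scale over 6442 genes with at least 2 ranked probes, and they spanned a median of 28.7 percentile points. They spanned more than 50 points in 20.9% of these genes and 5 points or fewer in 9.03%. For ribosomal protein genes the median SD was 0.891 and the median span 2.01 points over 63 genes, whereas the 100 brightest genes had a median SD of 2.27 (57 genes). Of 8904 ranked genes with 2 or more probes, 4203 also had a probe that was not well above background. Neighbours in the order, such as *Ccl3* and *Ccl5*, *Ccl2* and *Ccl4*, or *Tlr7* and *Tlr4*, are therefore not separated by these signals.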

How the data were processed

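SurePrint G3 Mouse GE arrays were hybridised in 1 colour (Cy3) with RNA of RAW macrophages, 1 array per condition. The authors deposited, for each array, Feature Extraction output (version 12.0.3.1 per the file headers), in which the processed signal is an intensity with local background and spatial trend removed and with no scaling between arrays. They also deposited log2 values normalized between arrays, used here as an alternative only. limma is named in the submitters' processing notes and, with GeneSpring, in the methods, which give no normalization setting, and the methods' thresholds for changed genes were not used here.

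The 59305 gene spots (56605 probes of 60 bases) were filtered to spots well above background without an outlier flag, and repeated spots were averaged on the log2 scale. Probes were named through RefSeq tables by accession (33767) or symbol (10176), and 12662 stayed unnamed. Percentile ranks were taken over the ranked genes of each array, or over probes ranked on all arrays for the 5-point counts. Classes came from 50 gene lists and symbol patterns. The lists and members were chosen with earlier results of these data known. Genes were named by rule: the 30 brightest, the 3 brightest of each list and its genes not above background, the largest drops among the 100 brightest, genes of the study's figures, and the 5 brightest outside the lists. Genes singled out beside these were chosen after their values were seen. A few genes that the rule names are not reported here.

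No test was run, and the number of arrays limits the precision. Probe positions are on mm9. No genome of that build was used here, so exons, introns and UTRs were not assigned. Python 3.11.15, pandas 2.3.3 and NumPy 2.4.6 were used. The ranking steps were run on simulated arrays with noise like that of repeated spots. The median absolute log2 difference of genes from the LPS array was larger (0.365 for CRL1505 + LPS and 0.207 for CRL1506 + LPS, after centring). The simulation therefore does not bear on shifts between these arrays. Alternatives were other detection flags, signals, probes per gene, bands and tolerances.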

Additional observations from a re-analysis of the deposited data

How the results depend on the processing

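Of 113 results under alternatives, 90 stayed within the between-probe or count tolerance and 23 moved. The 5 results with outlier spots kept repeated the main count, which does not drop such spots, so they could not move. Median percentiles near the top and the counts kept among the 100 brightest genes could leave their tolerance only downward. With the brightest 1% in place of 5%, the share of ranked genes in the band was 57.5% for ribosomal proteins, 18.4% for actin genes, 1.20% for oxidative phosphorylation, 19.05% for histones and 8.11% for lysosomal genes, and with the brightest 10% it was 80.7% for oxidative phosphorylation and 54.1% for lysosomal genes. These follow from the width of the band. With the median probe of a gene in place of the brightest, the share for actin genes was 31.6%. With dim probes included, the median percentile of MHC class II genes was 45.2. With the more lenient flag of a signal significantly above background, the genes not detected were 4 tissue-resident markers (11 with the stricter flag), 2 MHC class II genes (4), 4 alternative activation genes (11), 3 CXC, CX3C and XC chemokines (8) and 604 olfactory receptors (919), so which macrophage genes count as dark rests on the flag. The share of probes that kept their rank on the CRL1505 + LPS array was 33.3% within 2 points, 84.4% within 10 points and 48.1% with each array ranked over its own probes. On the CRL1506 + LPS array it was 42.2%, 88.9% and 74.0%, and 71.7% with uneven spots left out. Counted as within 2-fold of the LPS signal after centring, a scale chosen after seeing the data, the shares were 87.0% and 91.3%. Leaving out probes with an interspersed repeated run, an alternative chosen after seeing the data, left 77 and 94 of the 100 brightest genes among the 100 brightest on the CRL1505 + LPS and CRL1506 + LPS arrays. The deposited log2 values and the adjustment for base composition moved no result beyond the tolerance. For the class shares and medians, the deposited values gave the same numbers as the median spot signal minus background, so these alternatives are not separate checks.

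No paired analysis was possible because there was 1 array per condition. Signal over background limits statements on genes at the dim end, and the spread between probes limits the order of genes on the array. Leaving out an array leaves no second array of that condition, so no such value can be given.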

Other observations

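Noncoding RNAs were ranked less frequently than protein-coding genes on the LPS array. Of the genes that the RefSeq table lists as long noncoding RNAs, 1184 of 4033 were ranked (29.4%), with a median percentile of 18.7, against 13405 of 20337 protein-coding genes (65.9%), with a median of 53.4. Of the bright ones without a repeated run, *Gm20751* led at a signal of 138113 (rank 171 among genes). *Gas5* was at percentiles 97.2, 96.0 and 96.9 on the LPS, CRL1505 + LPS and CRL1506 + LPS arrays, *4933427D06Rik* at 96.4, 97.6 and 95.6, *Norad* at 96.2, 96.0 and 95.9, *Zfas1* at 96.0, 94.8 and 95.3, and *Snhg3* at 86.2, 80.2 and 86.2. *Rn7sk*, the RNA of the 7SK particle that holds back transcription elongation, was at 90.4, 85.7 and 91.2. *Neat1*, the scaffold of paraspeckles, was at 36.8, 31.6 and 51.8, with signals of 402, 365 and 1213, and was highest on the CRL1506 + LPS array. *Mir155hg*, the precursor gene of a microRNA known from LPS-treated macrophages, was dim on each array at 17.8, 22.0 and 22.4.

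The Y-linked genes *Ddx3y*, *Uty* and *Eif2s3y* were not well above background on any of the 3 arrays, and *Kdm5d* was at percentile 18.7 on the LPS array. *Xist*, which silences an X chromosome in female cells, was at percentiles 39.8, 39.9 and 49.6. Its signals were 507, 618 and 1082, so a like percentile on the first 2 arrays does not stand for a like signal.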
